A study of Drosophila melanogaster with 8 samples.

Results

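The 8 Hox genes of Drosophila melanogaster, labial (lab), proboscipedia (pb), Deformed (Dfd), Sex combs reduced (Scr), Antennapedia (Antp), Ultrabithorax (Ubx), abdominal-A (abd-A) and Abdominal-B (Abd-B), were followed through the cells of whole stage 17 embryos. They were chosen by gene symbol alone, 8 of 17717 features in the deposited table. Embryos aged 17 to 18.5 hours were dissociated and run on 10x Genomics droplets, which give single-cell counts of unique molecular identifiers (UMIs). There was 1 condition, in 4 replicates of 2 lanes each. Every animal carried alrm-gal4, a driver active in astrocytes, with the reporter UAS myr::GFP, and also 25H07-gal4 with UAS-redstinger::NLS. Each replicate was a pool of embryos, so no cell could be traced to 1 animal. The comparisons below are therefore between cell classes and between cells of the same class.

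Hox genes encode homeodomain transcription factors that give each segment its identity along the head-to-tail axis. In flies they lie in separate clusters, the Antennapedia complex with lab, pb, Dfd, Scr and Antp and the bithorax complex with Ubx, abd-A and Abd-B, and their order on the chromosome is that of the body regions in which they act. In the embryonic nervous system they set which neurons and how many progenitor divisions each neuromere has, and posterior Hox proteins are known to repress more anterior Hox genes in the epidermis. By the BDGP6.54 annotation, all 8 lie on chromosome arm 3R, from lab (6661427 to 6678590) through Antp (6896253 to 6999228) in the first cluster, and from Ubx (16656623 to 16734426) through abd-A (16807214 to 16830049) to Abd-B (16927212 to 16972236) in the second. Each gene is transcribed from the minus strand except Dfd (6791836 to 6802428). Exons of Antp overlap those of CG46458 on the same strand, so Antp counts carry that uncertainty. Ubx overlaps the antisense transcript asRNA:PS4 on the opposite strand, and no gene on its own strand.

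The table held 73765 barcodes under 8 numbers, with 26261446 to 36130722 UMIs per number. Numbers 1 and 5, 2 and 6, 3 and 7, and 4 and 8 shared at least 99.56% of their barcodes and other numbers at most 0.42%, so each such pair was summed as 1 library pair, which left 38531 distinct cells. The numbers could not be tied to named replicates, and the 4 library pairs are used below only as the measure of spread. Of the cells, 27932 had at least 200 genes and under 20% mitochondrial UMIs, with a median of 4069 UMIs. Classes were gated on 1 marker each: nSyb for neurons (5389 cells), repo for glia (809), mira for neural progenitors (455), Mhc for muscle (1486), the summed Tweedle cuticle genes for epidermis (2096) and mex1 for midgut (391). Another 1580 cells passed more than 1 gate and 15726 passed none. Markers outside the gates mostly followed the class names: by at least 1 log2 unit over all other cells, 6 of 6 neuronal, 7 of 7 glial, 8 of 8 progenitor, 8 of 8 muscle, 5 of 7 epidermal and 7 of 9 midgut markers were higher in their own class. The muscle class was also higher for 4 of 4 visceral mesoderm and heart markers, and for 3 of 9 midgut markers, the epidermal class for 2 of 2 tracheal markers, and neurons for 3 of 7 glial markers. Library pair 1 stood apart in composition, with 385 neurons against 1453 to 1891 in the other library pairs, and with 753 muscle cells against 199 to 289. For that reason, values are given within classes.

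Neurons carried most of the Hox transcripts assigned to a class. Summed over the 8 genes, neurons held 1683 CPM (95% Poisson interval 1663 to 1704), CPM being the UMIs of a gene scaled to the total UMIs of the class, with 1669, 1791, 1582 and 1651 CPM in library pairs 1 to 4. The other classes held 340 CPM in epidermis, 306 in glia, 280 in progenitors, 253 in muscle and 71.1 in midgut. When cells that passed several gates were kept in each class, neurons held 1447 CPM, progenitors 882, glia 612, epidermis 385, muscle 246 and midgut 122 CPM, so neurons still led but the order of the others changed. The lowest neuronal library pair lay above the highest of every other class, which was 417 CPM, in progenitors of library pair 1. Neurons made up 19.3% of kept cells and 13.3% of their UMIs, but 45.4% of Hox UMIs. At least 1 Hox gene was detected in 76.0% of neurons (median depth 3560 UMIs), 64.7% of epidermal cells (6659.5), 61.7% of glia (7327), 41.8% of progenitors (3651), 33.1% of muscle cells (3448) and 27.6% of midgut cells (11023). Depth differed between the classes, so cells were also thinned to 1000 UMIs each. No Hox gene was then detected in 40.0% of neurons, 75.0% of epidermal cells, 77.4% of glia, 74.5% of progenitors, 83.6% of muscle cells and 91.1% of midgut cells. Cells that passed no gate held 202 CPM and 19.2% of all Hox UMIs. The Hox UMIs outside these cells and the classes lay in the 1580 cells that passed more than 1 gate, whose level was not computed.

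**Figure D1:**
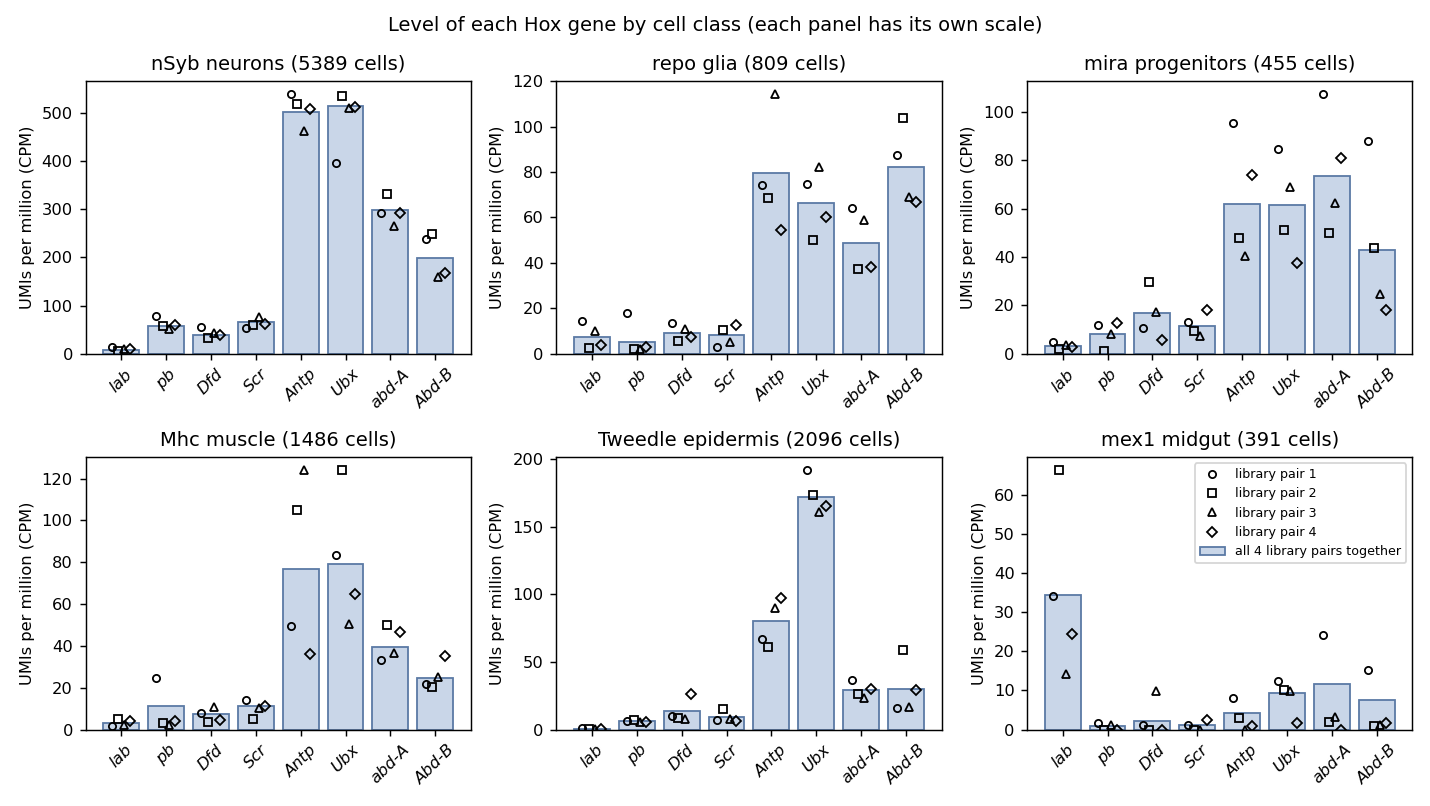
Level of the 8 Hox genes in each cell class, in CPM (vertical axis, a separate linear scale per panel). Bars give all cells of the class together and open symbols the 4 library pairs. In neurons Ubx (514 CPM) and Antp (501 CPM) stood highest, in epidermis Ubx alone (172 CPM), and in midgut lab (34.4 CPM).

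In neurons, 7 of the 8 genes were at least 1 log2 unit above all other kept cells (26.2% of the 12297 features with at least 20 UMIs were), and only lab (log2 ratio 0.78) was not. None of the 8 was lower by that much, where 32.8% of features were. The median log2 ratio was 2.46 over the 8 genes and -0.11 over all features tested. Counts of 3' UMIs do not scale with transcript length, so levels of different genes are set side by side directly. A molecule can be counted in both lanes of a library pair, so UMI numbers here are not numbers of molecules.

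The trunk genes led in neurons. Ubx, which specifies the third thoracic and first abdominal segments, had 396, 535, 511 and 513 CPM in library pairs 1 to 4 and was detected in 39.4% of neurons. Antp, which specifies the second thoracic segment, had 539, 519, 462 and 509 CPM and was detected in 44.2%. The ranges of these leading genes overlapped, so their order was not resolved. abd-A, which acts in abdominal segments, followed with 293, 332, 266 and 291 CPM and was found in 35.4% of neurons. Abd-B, the gene of the most posterior segments, had 239, 248, 160 and 168 CPM and was found in 19.0%. Both steps down, to abd-A and to Abd-B, separated all 4 library pairs.

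The head genes were lower in neurons by a further step. Scr, which acts in the labial and first thoracic segments, had 53.6, 60.4, 77.0 and 62.3 CPM. The mouthpart gene pb had 79.5, 58.6, 51.1 and 59.2 CPM, and Dfd, which specifies the mandibular and maxillary segments, had 55.3, 32.9, 43.9 and 38.9 CPM. The most anterior gene, lab, which acts in the intercalary segment, was lowest with 13.5, 6.08, 10.5 and 9.20 CPM. The ranges of Scr and pb overlapped, as did those of pb and Dfd, and lab lay below Dfd in all 4 library pairs. These genes were found in few neurons, 9.52% for pb, 8.78% for Scr, 5.99% for Dfd and 2.49% for lab. Neurons with any Scr UMI held 4.24 of them on average, and those with any Antp UMI 6.47.

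As a low reference for these shares the class with the lowest share of each gene was taken, which was midgut for all genes but lab, although midgut cells were deeper (median 11023 UMIs). This class was picked by its shares, and free RNA itself was not measured. There Antp was found in 3.58%, Ubx in 5.88%, abd-A in 5.37%, Abd-B in 4.35%, Scr in 1.02%, pb in 0.77% and Dfd in 0.51% of cells. Library pair 1 raised some of these: abd-A was found in 8.72% of its midgut cells and at most 3.51% in each other library pair, and Abd-B in 6.67% and at most 2.90%. At an equal 1000 UMIs, Antp was found in 26.4% of neurons and 1.04% of midgut cells, and Ubx in 25.1% of neurons and 1.57% of midgut cells. For lab the class with the lowest share was epidermis, with 0.67% of cells at a median of 6659.5 UMIs.

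In glia Abd-B and Antp led by CPM. None of the 8 genes was at least 1 log2 unit higher in glia than in other cells (10.6% of all features were), and pb, Scr and Ubx were at least 1 unit lower, against 33.9% of all features. These other cells include the neurons, which held 45.4% of Hox UMIs. The glial calls also rest on leaving out cells of several gates. With those cells kept, summed Hox genes were at 612 CPM in glia rather than 306 CPM, against 494 CPM in all kept cells. Against cells that passed no gate, glia were not lower when pooled over library pairs. Ubx had 66.3 and 51.4 CPM, Scr 8.18 and 4.46 CPM, and pb 5.19 and 3.21 CPM, though 22 of the glial pb UMIs came from 1 cell. By library pair, glia were lower for Ubx in 2 (50.1 against 50.2 CPM) and for Scr in 1 (2.85 against 5.39 CPM). For pb they were lower in 2 (2.22 against 4.13 CPM) and 3 (2.22 against 2.43 CPM). Abd-B had 82.0 CPM in glia, with 87.7, 104, 69.0 and 66.7 CPM by library pair, and was the only trunk gene above its level in other cells (log2 ratio 0.36). Antp had 79.7, Ubx 66.3 and abd-A 48.7 CPM. The ranges of neighbours in this order overlapped, but Abd-B lay above abd-A in all 4 library pairs of glia (66.7 to 104 CPM against 37.2 to 64.2 CPM), and below it in all 4 of neurons. Among the 173 glia with at least 5 Hox UMIs, Abd-B was the leading gene in 34.7%, against 11.9% of 2834 such neurons.

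Progenitors, with only 455 cells, held abd-A at 73.4, Antp at 61.9, Ubx at 61.6 and Abd-B at 43.1 CPM, and the library pair ranges of all of these overlapped. Antp and Ubx were at least 1 log2 unit lower than in other cells and no gene was higher by that much, where 25.4% and 19.4% of all features were. The other cells include the neurons. Pooled over library pairs, cells that passed no gate held less than progenitors, with Antp at 50.4 and Ubx at 51.4 CPM. By library pair, progenitors were lower than these cells for Antp in 2 and 3 (in 3, 40.4 against 59.8 CPM) and higher in 1 and 4. For Ubx they were lower in library pair 4 (37.7 against 45.6 CPM) and higher in the others. These progenitor calls also rest on leaving out cells of several gates. The mira gate was passed by 988 cells, and 474 cells passed both it and the nSyb gate. With cells of several gates kept, summed Hox genes were at 882 CPM in progenitors rather than 280 CPM, against 494 CPM in all kept cells. In muscle, Ubx (79.4 CPM) and Antp (76.8 CPM) led, but Antp varied from 36.1 CPM in library pair 4 to 124 CPM in library pair 3. abd-A and Abd-B were at least 1 unit lower in muscle than in other cells and no member was higher, beside 31.6% and 6.42% of all features. Pooled over library pairs, both were also lower in muscle than in cells that passed no gate, 39.4 against 47.1 CPM and 24.6 against 36.1 CPM. This did not hold in each library pair. In muscle abd-A was higher in library pairs 2 (50.1 against 48.7 CPM) and 4 (46.8 against 42.1 CPM), and Abd-B in library pair 4 (35.0 against 31.7 CPM).

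In epidermis Ubx led. It had 192, 174, 161 and 165 CPM in library pairs 1 to 4, above Antp in each of them (67.2, 61.2, 89.9 and 97.0 CPM), and made up 50.5% of the class's Hox UMIs, where it made up 30.5% in neurons. It was found in 36.9% of epidermal cells and 39.4% of neurons, and at an equal 1000 UMIs in 11.5% and 25.1%. Abd-B (29.7 CPM) and abd-A (28.9 CPM) came next without separating, and Dfd had 13.6 CPM, with 26.3 CPM in library pair 4 against 7.72 to 10.2 CPM in the others. Of the 8 genes 5 were at least 1 log2 unit lower in epidermis than in other cells, but so were 67% of all features. Of these, pb (6.11 and 3.21 CPM) and Scr (8.90 and 4.46 CPM) were higher in epidermis than in cells that passed no gate. The others, lab, abd-A and Abd-B, were lower there too, though Abd-B was higher in library pair 2 (58.7 against 43.5 CPM). None of the 8 was at least 1 log2 unit higher in epidermis than in other cells, as 9.73% of features were.

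In midgut the most anterior gene led. lab, which in fly endoderm is known to be induced by signals from the visceral mesoderm and to be needed for copper cells, had 34.4 CPM there, with 34.2, 66.4, 14.2 and 24.4 CPM by library pair, a log2 ratio of 2.83 over all other cells. It was found in 14.3% of midgut cells (56 of 391) and made up 48.4% of their Hox UMIs. All 7 other genes were at least 1 log2 unit lower in midgut, beside 39.8% of all features, and 17.4% of features were higher by that much. Among the trunk genes, abd-A had 24.1 CPM in library pair 1 against 0, 2.04 and 3.29 CPM in the others, and Abd-B 15.3 against 1.02 to 1.62 CPM in each of the others. Ubx was not confined in this way, with 12.5, 10.2, 9.87 and 1.62 CPM in library pairs 1 to 4.

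Whether Hox genes exclude one another was asked within classes. For each of the 28 pairs of genes, the number of cells with a UMI of both was divided by the number expected if they were detected independently among cells of like depth in the same library pair, and pairs with at least 5 expected cells were scored. Cells of 1 library are not replicates, so these ratios are given with their values by library pair and no p-value.

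In neurons, neighbours in the cluster order were found together more often than expected and distant genes less often. All 28 pairs were scored, 18 below and 10 above 1, and 15 were below 1 and 9 above 1 in each of the 4 library pairs. The median ratio was 1.60 for genes 1 step apart, 1.04 at 2 steps, 0.86 at 3 steps, 0.56 at 4 steps, 0.51 at 5 steps and 0.54 at 6 steps, and the pair at 7 steps, lab and Abd-B, gave 0.64. At a ratio of at most 0.5 stood lab with abd-A (0.32) and Ubx (0.46), Dfd with Antp (0.47) and Scr with abd-A (0.49). At a ratio of at least 2 stood pb with Dfd (2.34), lab with pb (2.22) and abd-A with Abd-B (2.06). Several of these calls sat near the limit and were lost without 1 library pair: lab with Ubx rose to 0.58 without library pair 3, Dfd with Antp to 0.51 without library pair 4, Scr with abd-A to 0.51 without library pair 2, lab with pb fell to 1.82 without library pair 4, and abd-A with Abd-B to 1.999 without library pair 3. Dfd with Scr was above 1 in library pairs 2 and 3 only.

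**Figure D2:**
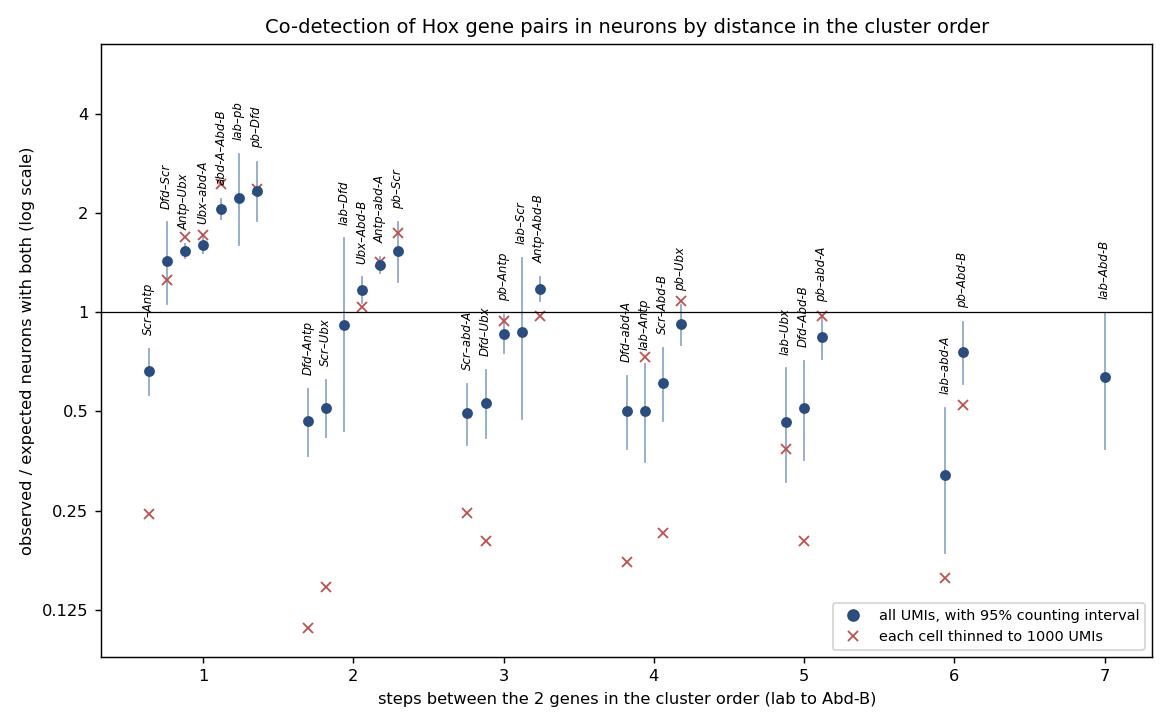
Ratio of observed to expected neurons with UMIs of both genes (vertical axis, log scale), for the 28 pairs of Hox genes by the number of steps between them in the cluster order (horizontal axis). Dots use all UMIs, with a 95% Poisson interval of the observed count. Crosses use cells thinned to 1000 UMIs, without depth bins or library pairs, where at least 5 cells were expected. All neighbours except Scr and Antp lay above 1, and 15 pairs were below 1 in each library pair.

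The trunk genes overlapped broadly. abd-A was found in 78.1% of neurons with an Abd-B UMI and in 25.4% of those without. Ubx was found in 63.8% of neurons with Antp and in 20.1% of those without, a ratio of 1.53 (1.65, 1.49, 1.56 and 1.55 by library pair). Ubx and abd-A gave 1.60, and Antp and abd-A 1.39. Even Antp and Abd-B, at opposite ends of the trunk set, were together in 584 neurons where 496 were expected, 1.18 times (1.08 to 1.28). At 1000 UMIs per cell this last ratio was 0.97, and that of Ubx and Abd-B 1.04, while the 3 neighbouring pairs stood between 1.69 and 2.44. Ratios at 1000 UMIs were taken without depth bins or library pairs. At full depth without these, Antp and Ubx gave 1.62, Ubx and abd-A 1.67, and abd-A and Abd-B 2.21.

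The head genes Dfd and Scr were set apart from the trunk genes. Antp was found in 23.2% of neurons with a Dfd UMI and 45.5% of those without, and all 8 ratios of Dfd or Scr with Antp, Ubx, abd-A or Abd-B lay between 0.47 and 0.66. At an equal 1000 UMIs the same 8 ratios were between 0.11 and 0.24. Dfd and Antp were then together in 4 neurons against 36.4 expected, and Scr and Ubx in 8 against 54.5. Without the 8% deepest cells, 9 pairs rather than 4 stood at a ratio of 0.5 or less. The part of free RNA and of droplets with more than 1 cell in these ratios was not tested.

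Scr and Antp were the only neighbours below 1. They are next to each other in the Antennapedia complex and act in adjoining segments. Antp was found in 33.2% of neurons with an Scr UMI against 45.2% of those without, a ratio of 0.66 that held in each library pair (0.73, 0.56, 0.80 and 0.65). In the other scored classes the same pair lay above 1, at 1.28 in glia (10 cells), 1.33 in muscle (11 cells) and 1.12 in epidermis (29 cells). The counting intervals of these 3 ratios (0.61 to 2.35, 0.67 to 2.39 and 0.75 to 1.61) all included 1, and the difference between classes was not tested.

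pb did not follow the other head genes. It was found with Dfd (30.03% of Dfd neurons had pb, against 8.21% of the rest) and with Scr (1.53) more often than expected. Yet Antp was found in 44.4% of neurons with pb and 44.2% of those without, and Ubx in 39.8% and 39.4%. Its ratios with the 4 trunk genes were 0.76 to 0.92 at full depth and 0.94, 1.08, 0.98 and 0.52 at 1000 UMIs for Antp, Ubx, abd-A and Abd-B. The level of Antp was nonetheless lower with more pb: 529 CPM in neurons without pb, 443 and 346 CPM at 1 to 2 and 3 to 9 pb UMIs, and 137 CPM in the 23 neurons with 10 or more. Depth grew along these bins, with medians of 3445.5, 5402, 7700 and 21220 UMIs, and the share with Antp was 44.2, 45.1, 44.3 and 39.1%. The combination of pb with Antp, Ubx and abd-A, and no other Hox gene, was found in 52 neurons, and pb with Dfd alone in 51. In epidermis, where pb was found in 59 cells, it was with Ubx in 11 (23.5 expected) and with Abd-B in 0, where 7.45 were expected, which allows a ratio of up to 0.50 by the counting interval.

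**Figure D3:**
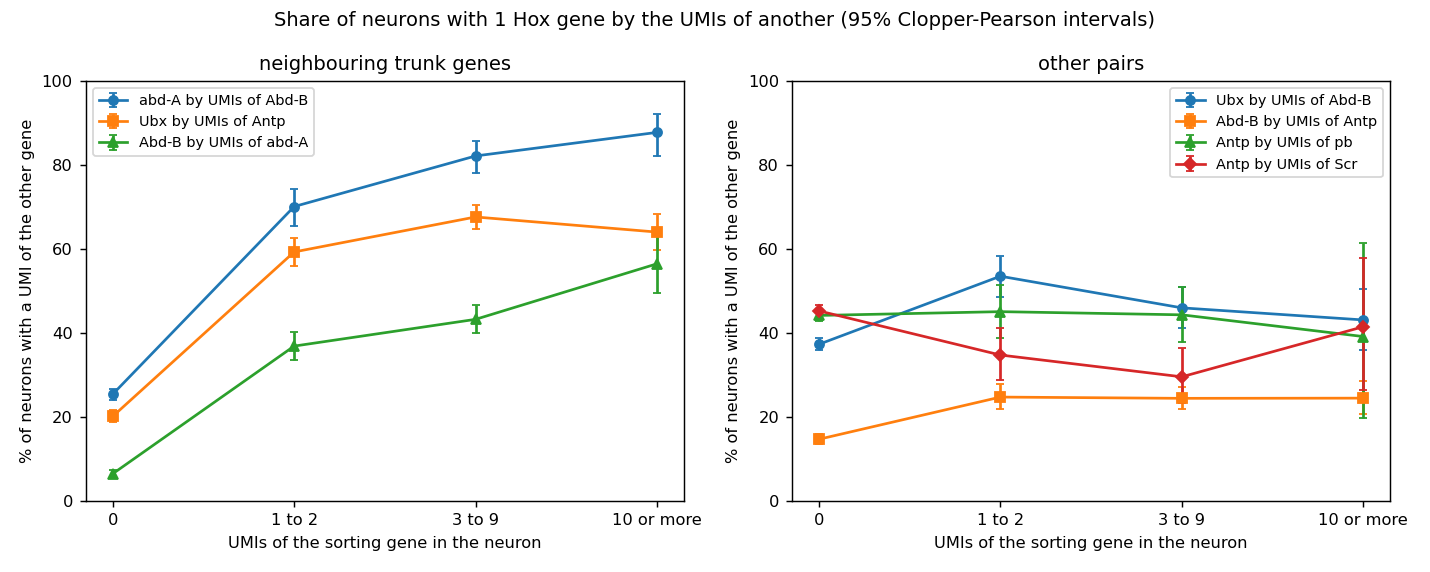
Share of neurons with a UMI of 1 Hox gene (vertical axis, with 95% Clopper-Pearson intervals) by the number of UMIs of another in the same neuron (horizontal axis). The share with abd-A was 87.8% at 10 or more Abd-B UMIs and 25.4% at 0, whereas the share with Antp was 39.1% at 10 or more pb UMIs and 44.2% at 0.

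In the pairs given here, the share of neurons with 1 trunk gene was higher at 1 or more UMIs of another than at none, but it grew with further UMIs only for some. The share of neurons with abd-A was 25.4% at 0 UMIs of Abd-B, 70.1% at 1 to 2, 82.2% at 3 to 9 and 87.8% at 10 or more. Depth grew along with it, with medians of 3422, 3979, 4344 and 7838 UMIs in these bins. The level of abd-A, scaled to depth, followed the same order with 199, 528, 625 and 705 CPM. The share with Ubx, in contrast, was 37.3% at 0 UMIs of Abd-B, 53.5% at 1 to 2, 46.0% at 3 to 9 and 43.1% at 10 or more. By UMIs of Antp in the same order, the share with Ubx was 20.1, 59.3, 67.6 and 64.0%, that with abd-A 21.9, 51.3, 54.5 and 50.5%, and that with Abd-B 14.7, 24.7, 24.4 and 24.5%. The level of Ubx was at 513 CPM in neurons without Abd-B, 590 at 1 to 2, 535 at 3 to 9 and 390 CPM at 10 or more Abd-B UMIs. Abd-B in turn was at 183 CPM in neurons without Antp, 293 at 1 to 2, 214 at 3 to 9 and 144 CPM at 10 or more Antp UMIs. For Scr and Antp the level of Antp was 544 CPM in neurons without Scr, 288 and 259 CPM at 1 to 2 and 3 to 9 Scr UMIs, and 60.7 CPM in the 41 neurons with 10 or more. The share with Antp did not fall throughout, at 45.2, 34.7, 29.5 and 41.5% in the same order. Depth grew along these bins too, with medians of 3460.5, 4434, 5907 and 15313 UMIs.

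At full depth most neurons with a Hox gene had several. Of all neurons 24.0% had none detected, 25.8% had 1, 23.7% had 2, 16.7% had 3 and 9.82% had 4 or more. At 1000 UMIs per cell most had only 1: the shares were 40.0% with none, 34.4% with 1, 17.9% with 2, 6.65% with 3 and 0.993% with 4 or more. Among the 2707 with at least 2, the genes formed an unbroken run of the cluster order in 69.7%. The 4 commonest genes are adjacent, and the share to be had from their frequencies alone was not computed, so this is a description only. The commonest combination was Antp, Ubx and abd-A (522 neurons), followed by Antp and Ubx (428), Antp alone (423) and all 4 trunk genes (293). Antp and abd-A without Ubx between them were found in 121. In neurons with at least 5 Hox UMIs, the leading gene made up a median of 66.7% of them, against 80.9% in epidermis and 71.4% in glia.

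In epidermis most pairs of a head and a trunk gene were again found together less often than expected. There 19 pairs could be scored and 10 stood at 0.5 or below, among them Dfd with Ubx (0.25), Scr with Ubx (0.26), Scr with abd-A (0.21) and Scr with Abd-B (0.09, 1 cell where 11.3 were expected). Scr with Antp, at 1.12, was the exception. Pairs among pb, Dfd and Scr fell below the minimum of 5 expected cells but were found together more often than expected. pb with Scr was in 25 epidermal cells (3.04 expected), pb with Dfd in 19 (2.91 expected) and Dfd with Scr in 14 (3.93 expected). Each of these ratios was above 1 in all 4 library pairs. Ubx was found in 10.6% of epidermal cells with an Scr UMI and 38.0% of those without. Among trunk genes, Antp and Ubx gave 1.09 in epidermis and 1.53 in neurons, and Ubx and abd-A 1.26 in epidermis and 1.60 in neurons. The 4 library pairs of epidermis (1.034 to 1.17 and 1.18 to 1.38) all lay below the 4 of neurons (1.49 to 1.65 and 1.503 to 1.72) for both. Epidermal cells were deeper (median 6659.5 against 3560 UMIs), and at an equal 1000 UMIs the gaps were smaller, with 1.43 in epidermis and 1.69 in neurons for Antp and Ubx, and 1.47 and 1.71 for Ubx and abd-A. Ubx and Abd-B were below 1 in epidermis in each library pair (0.74, 0.84, 0.87 and 0.75) and above 1 in neurons in each (1.12, 1.11, 1.203 and 1.24). At 1000 UMIs this difference was not seen: the ratio was 1.05 in epidermis (7 cells, 6.69 expected) and 1.04 in neurons.

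Glia and muscle allowed fewer pairs. In glia 8 of 18 scored pairs stood at 0.5 or below, all of them between a head gene and a trunk gene, such as lab with abd-A and Dfd with abd-A at 1 cell each, where 7.56 and 8.99 were expected. abd-A with Abd-B (1.81), Ubx with abd-A (1.54) and Antp with Ubx (1.40) led the other side. In muscle, abd-A with Abd-B had a ratio of 2.53 (43 cells where 17.0 were expected), and Dfd with Ubx 0.17 (1 cell, 5.93 expected). Head and trunk genes were less apart there: Scr with Ubx stood at 0.48, but Scr with Antp at 1.33, Scr with abd-A at 1.02 and pb with Antp at 0.99. Progenitors gave only the 6 pairs of the trunk genes, from 1.01 for Ubx with Abd-B to 2.22 for abd-A with Abd-B. No midgut pair reached 5 expected cells.

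**Figure D4:**
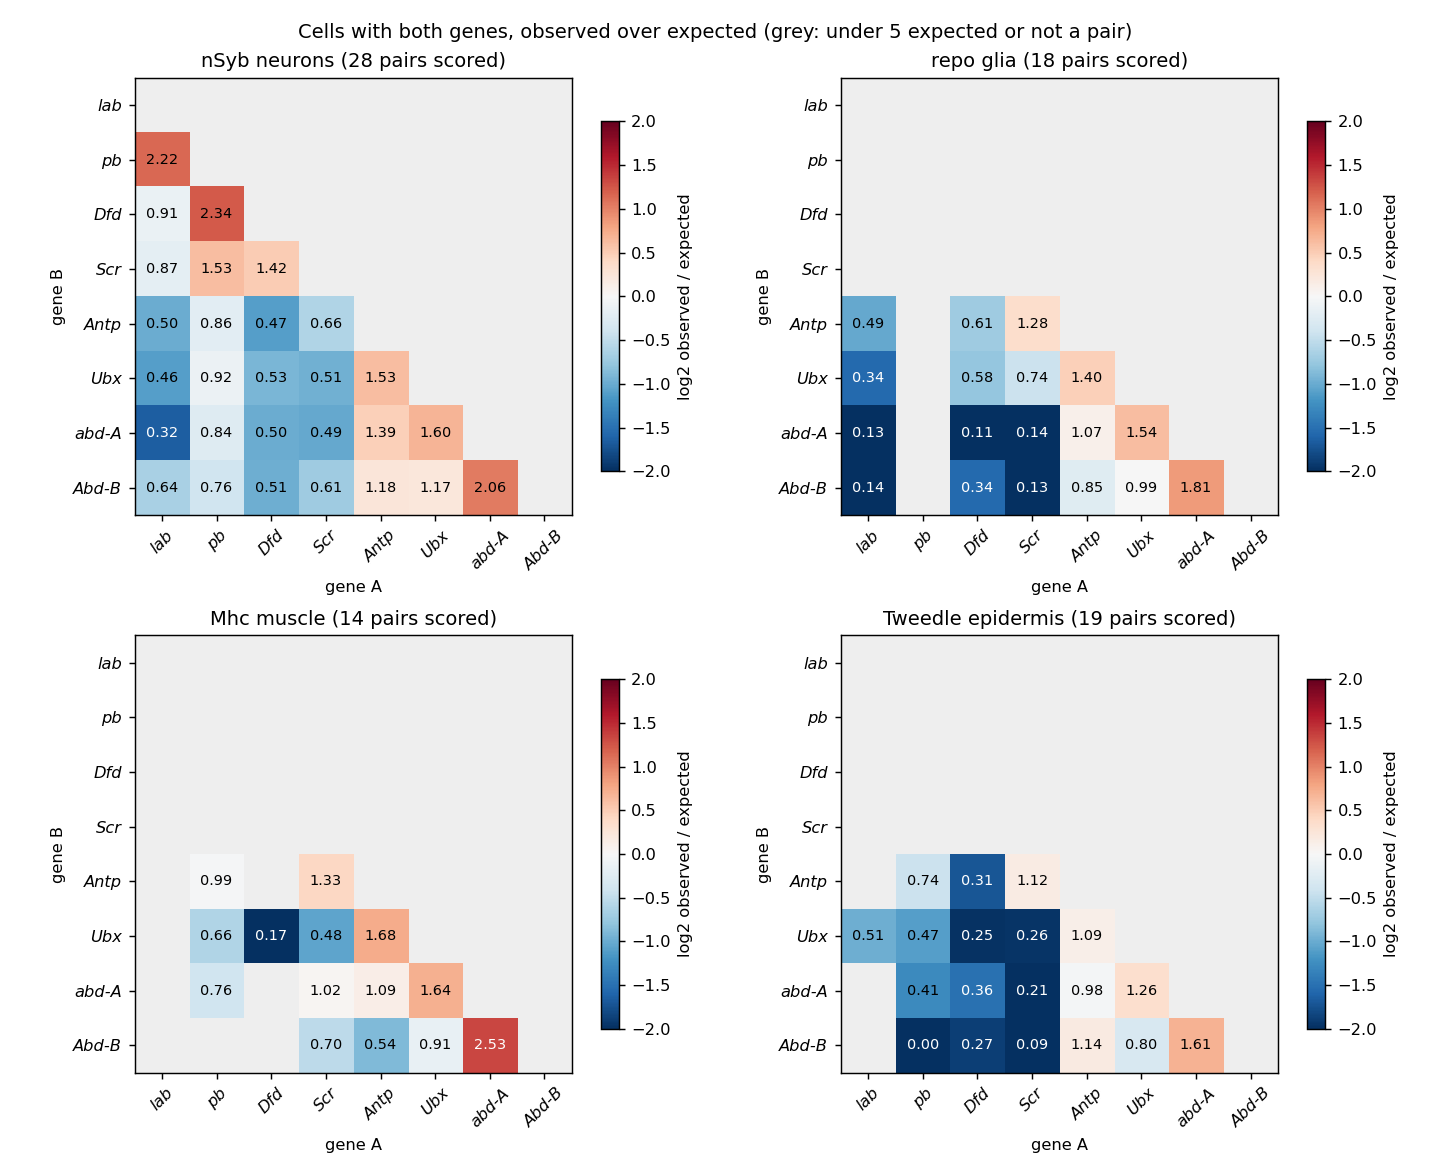
Observed over expected number of cells with both genes for each scored pair of Hox genes in neurons, glia, muscle and epidermis, with gene A across and gene B down. Numbers are ratios, colours their log2 value (red above 1, blue below 1, held at 2 units), and grey marks fewer than 5 expected cells. Head genes with trunk genes are blue in most cells of each panel, and the abd-A with Abd-B cell is the reddest in glia, muscle and epidermis.

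Genes of the head and trunk divided the neurons with and without a Hox UMI. teashirt (tsh), which encodes a zinc finger protein that promotes trunk identity, was found in 51.3% of the 4096 neurons with a Hox UMI and 9.36% of the 1293 without, with levels of 252 and 41.3 CPM. Of 8 head and brain genes, all 8 had a lower share in neurons with a Hox UMI than in those without, although neurons with a Hox UMI were deeper (medians of 3941.5 and 2810 UMIs). Optix, an eye and forebrain gene, was found in 5.03% against 11.99%, the Pax6 gene twin of eyeless (toy) in 17.7% against 26.5%, scarecrow (scro) in 4.08% against 8.89% and Rx in 3.49% against 5.80%. The order held in each library pair for Optix, toy, scro, Rx and oc, and not for ey, hbn and tll.

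tsh also followed the trunk genes among themselves. Its ratio was 1.39 with Antp, 1.47 with Ubx, 1.47 with abd-A and 1.31 with Abd-B, and it was 0.40 with lab, 0.55 with Dfd and 0.67 with Scr, while with pb it was 1.06. When only neurons with a tsh UMI were used, most pair ratios moved towards 1: Antp with Ubx to 1.07, Dfd with Ubx to 0.97 and Scr with Antp to 0.88. abd-A with Abd-B stayed at 1.53 and pb with Dfd at 1.85. No scored pair was then at 2 or more, and of the 4 pairs at 0.5 or less only lab with abd-A (0.48) remained.

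Most other genes that work with Hox proteins or on the Hox clusters showed ratios near 1. The cofactor genes extradenticle (exd) and homothorax (hth), whose proteins bind DNA with Hox proteins, were found in 63.0% and 79.3% of neurons, and their ratios with the 8 genes ran from 0.80 (exd with Abd-B) to 1.15 (hth with Dfd). disco and disco-r, which act with Dfd and Scr in head segments, were highest with Dfd, at 1.67 and 1.81. Of the 19 Polycomb group genes, repressors that keep Hox genes silent outside their domains, none had a ratio of 2 or more or of 0.5 or less with any of the 8. The same held for the 15 trithorax group genes, which keep them active. Both groups were higher in neurons than in other cells, 12 of 19 and 11 of 15 by at least 1 log2 unit, beside the 26.2% of all features. Progenitors shared this, with 13 of 19 and 11 of 15, beside 19.4% of all features.

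Genes of neuron types were compared with the Hox genes in the same way. The motor neuron genes Lim3 (1.24, 1.24, 1.23 and 1.12 with Antp, Ubx, abd-A and Abd-B) and even-skipped (eve, 1.14, 1.45, 1.56 and 1.74) were above 1 with all 4 trunk genes, and exex was found with lab at 0.09 of expectation. Of the 8 genes of this list, 8 lay above 1 with Ubx, 6 with Antp, 6 with abd-A and 5 with Abd-B. The lowest was FMRFa with Abd-B at 0.55, a neuropeptide gene that the list holds beside motor neuron genes. The cell death gene reaper (rpr), a known target of Abd-B and Dfd, had its highest ratios with them, 1.40 and 1.35. Its list, genes known to be under Hox control in some tissue, showed no such lean, with 5 of 8 below 1 with Abd-B (median 0.93) and 4 of 8 with Dfd. Of 10 transmitter genes, none reached 2 or fell to 0.5 with any Hox gene. Gad1, of inhibitory neurons, was highest with pb (1.55) and Dfd (1.45), and the acetylcholine genes VAChT and ChAT lay within 0.91 to 1.24 throughout.

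For Scr, Ubx, abd-A and Abd-B, the feature most like the gene in neurons was a non-coding RNA of the Hox clusters themselves. The measure was the same ratio, over features other than the 8 Hox genes, found in at least 1% of neurons with at least 10 expected cells, and the features named also had a ratio above 1 in each library pair. With Ubx, 1 of 8394 features (0.0119%) reached a ratio of 2, lncRNA:bxd at 2.11. With abd-A it was also 1 of 8394 (0.0119%), lncRNA:iab4 at 2.22. With Abd-B, 2 of 8393 (0.0238%) did, lncRNA:iab8 at 3.78 and lncRNA:iab4 at 2.82, and with Scr 2 of 7916 (0.0253%), lncRNA:CR45902 at 6.51 and lncRNA:CR45559 at 4.50. Antp had none among 8394 (0%), and its closest features were lncRNA:CR44465 (1.53), CG11449 (1.51) and lncRNA:bxd (1.51).

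lncRNA:CR45902 lies inside the span of Scr on the same strand (3R, 6834343 to 6834967), without overlap with its annotated exons. It was found in 118 of the 473 neurons with an Scr UMI (24.9%) and 0.26% of the rest. As it lies within the transcribed Scr gene, unspliced Scr RNA and this transcript cannot be told apart. lncRNA:CR45559 (6892918 to 6893462) lies outside Scr, 2791 bases from Antp. It was found in 14.0% of neurons with an Scr UMI and 0.77% of those without, with ratios of 3.21, 5.19, 4.33 and 4.03 by library pair, while its ratio with its neighbour Antp was 1.01.

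In the bithorax complex, lncRNA:bxd (16742125 to 16773189, upstream of Ubx) was found in 135 of 2125 neurons with a Ubx UMI (6.35%) and 0.28% of those without. lncRNA:iab8 (16831116 to 16923231), which spans the interval between abd-A and Abd-B and is known as the precursor of a microRNA that acts on Hox genes, followed Abd-B more than abd-A. It was found in 27.7% of neurons with Abd-B against 1.33% without, and its ratio was 1.86 with abd-A, 0.77 with Ubx and 0.91 with Antp. lncRNA:iab4 (16850004 to 16856497), on the opposite strand, gave 2.82 with Abd-B, 2.22 with abd-A, 1.53 with Ubx and 1.37 with Antp. Some of these ratios were also taken in other classes. lncRNA:iab8 with Abd-B gave 2.74 in glia (39 cells, 14.2 expected) and 3.30 in epidermis (22 cells, 6.67 expected). lncRNA:iab4 with Abd-B gave 2.88 in epidermis, where the same rule ranked it first for Abd-B, so that value was itself picked. For Ubx and abd-A, the features named by the rule in epidermis included none of these RNAs.

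**Figure D5:**
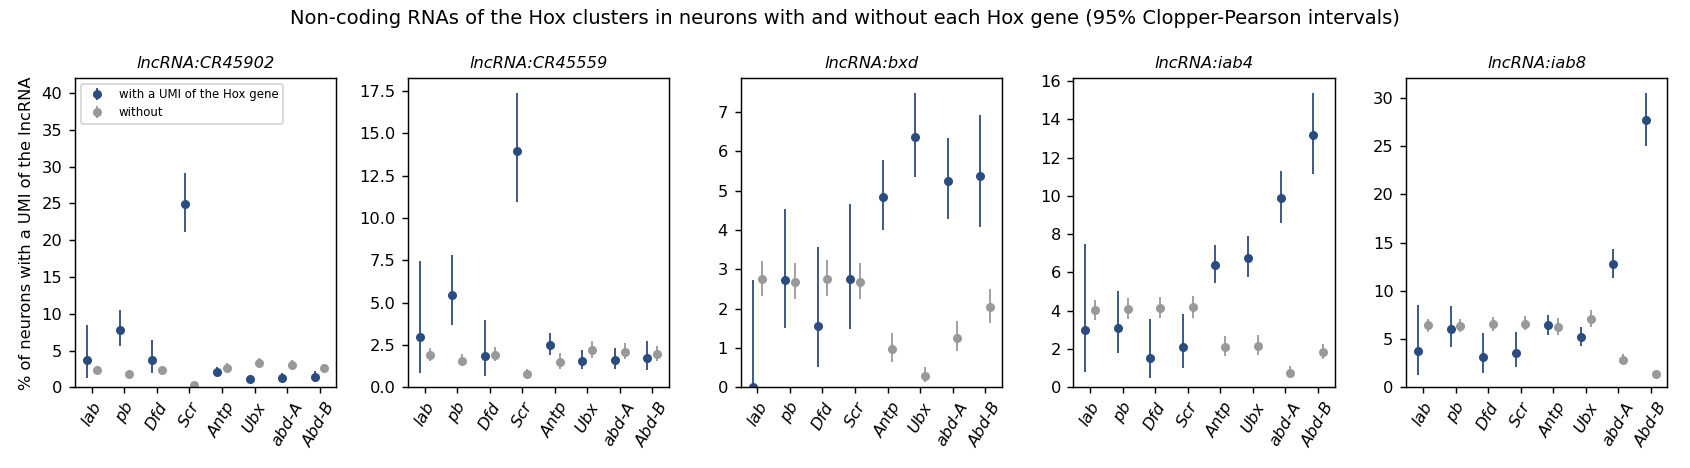
Share of neurons with a UMI of each of 5 non-coding RNAs of the Hox clusters (vertical axis, a separate scale per panel, 95% Clopper-Pearson intervals) in neurons with (blue) and without (grey) a UMI of each Hox gene (horizontal axis). CR45902 and CR45559 stood out with Scr, bxd with Ubx and the other trunk genes, and iab8 with Abd-B (27.7% against 1.33%).

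Of 20 non-member features of both clusters that were found in at least 20 neurons, 10 were non-coding and 10 coding. In pairs with at least 5 expected cells, the coding ones, mostly Ccp84 cuticle genes between lab and pb, reached at most 1.99 with any Hox gene (Ccp84Ac with Scr). Below that minimum stood Edg84A, a cuticle gene next to lab, for which 17 of its 26 neurons carried lab where 1.17 were expected. The early segmentation gene fushi tarazu (ftz), which lies in the Antennapedia complex, was found in 18 neurons.

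For the other head genes the rule, which leaves out the Hox genes themselves, named features outside the clusters. With Dfd the rule named rotund (rn, 2.94), which encodes a zinc finger transcription factor and was found in 24.5% of Dfd neurons against 4.95% of the rest, the bursicon receptor gene rickets (rk, 2.66) and CG9016 (2.63). With pb it named the T-box gene org-1 (2.31), Obp56d (2.20) and Sox21a (2.18), and with lab CG34398 (2.87), CG32006 (2.78) and CG13288 (2.70). Ratios of at least 2 were reached by 0.193% of 7261 features with Dfd, 0.0982% of 8145 with pb and 0.591% of 5750 with lab.

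In midgut, the cells with lab shared other genes. CG15127 was found in 60.7% of the lab cells and 2.39% of the other midgut cells, a ratio of 3.27 (3.63, 2.33, 5.83 and 2.80 by library pair). Pgcl was found in 75.0% against 7.16% (2.96) and the homeobox gene HHEX in 71.4% against 5.67% (2.91). Of 4734 features, 0.486% reached 2 in the same comparison.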

How the data were processed

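The deposited values are counts: UMIs per gene and barcode, made by the authors with Cell Ranger 3.1.0 against BDGP6, with barcodes of all 8 libraries pooled in 1 matrix. No map from barcode numbers to named samples was used, so the matrix was treated as 1 sample and the 4 library pairs as its spread. No p-value is given, since an exact test over 4 library pairs could not pass 0.05. The lane libraries of a pair can count a molecule in both: 68.0% of member detections under the lower number recurred under the higher, so Poisson intervals were taken on the summed count divided by 2. Intervals cover counting error only.

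A cell passed a gate with at least 2 UMIs of the marker and a share of its UMIs at or above that of all kept cells, and cells passing more than 1 gate were left out of the classes. Droplets with more than 1 cell were not removed, and the 8% deepest cells were left out as an alternative. Expected co-detection was summed over 10 depth bins within each library pair. Levels are CPM over all cells of a class, the spread is over the 4 library pairs, and shares have 95% Clopper-Pearson intervals. Named features are the 8 members, the lists, and the 3 features with the highest ratio per member. The features inside the clusters were added after these values were seen. The members and gene lists were chosen with earlier results of these data known. Coordinates are those of the BDGP6.54 annotation, not the build counted on. Python 3.11.15, numpy 2.4.6, scipy 1.17.1 and pandas 2.3.3 were used, and the functions were tested on simulated data.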

Additional observations from a re-analysis of the deposited data

Results flagged for a closer look

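In 7 of 54 sets of 4 library pair values (12.96%, where chance gives about 5%), 1 library pair stood far from the other 3. Summed Hox genes in progenitors had 417 CPM in library pair 1 against 233 to 250 CPM in the others, from 49 of its 112 progenitors, with at most 45 of the 345 UMIs in 1 cell. pb had 24.6 CPM in muscle of library pair 1 against 2.16 to 3.95 CPM, from 20 cells. In glia pb had 17.8 CPM in library pair 1 against 2.22 to 2.78 CPM, but 22 of its 25 UMIs came from 1 cell. Dfd had 26.3 CPM in epidermis of library pair 4 against 7.72 to 10.2 CPM, with 114 of 239 UMIs in 1 cell. In midgut, Dfd had 9.87 CPM in library pair 3, all 9 UMIs from 1 cell. abd-A had 24.1 CPM and Abd-B 15.3 CPM in midgut of library pair 1, from 17 and 13 of its 195 cells, against at most 3.29 and 1.62 CPM elsewhere. The cause was not tested.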

How the results depend on the processing

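No paired analysis was possible because the study had 1 condition, hence no groups of samples to pair. Contrasts between classes and genes were instead given within each library pair. No called pair ratio crossed 1 under these alternatives where the pair still had at least 5 expected cells. Pairs below that were not compared, such as lab with pb in neurons at 1000 UMIs (1 cell, 1.24 expected). When lanes were used singly or the gene and mitochondrial limits were changed, 28 of 28 neuronal pairs stayed on the same side of 1. Calls of a class against all other cells were not among the values retested. With overlapping gates, summed Hox genes rose from 280 to 882 CPM in progenitors and from 306 to 612 CPM in glia. All kept cells held 494 CPM, so both classes moved from below to above that level. The lowest agreement was 24 of 28 pairs without depth strata, then 22 of 25 in tsh neurons only and 22 of 24 at 1000 UMIs.

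The summed neuronal level of 1683 CPM became 1809 with at most 3000 genes per cell, 1783 without the 8% deepest cells, 1577 with a gate of 5 UMIs and 1447 with overlapping gates. With overlapping gates it was 612 CPM in glia, 882 in progenitors, 385 in epidermis and 122 in midgut. Progenitors had 420 CPM with at most 3000 genes and 408 without the deepest cells, and epidermis 308 with at most 3000 genes and 318 from the higher barcode numbers alone. Leaving out each library pair gave 1591 to 1721 CPM in neurons, 287 to 309 in glia, 228 to 307 in progenitors, 241 to 267 in muscle, 332 to 350 in epidermis and 50.9 to 82.1 in midgut, where the lowest is without library pair 1.

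The 4 neuronal pairs at a ratio of 0.5 or less became 9 from the higher barcode numbers alone, 9 with at most 3000 genes, 9 without the deepest cells, 8 with a gate of 1 UMI, 10 with detection at 2 UMIs, 10 at 1000 UMIs, 2 with overlapping gates, 1 without depth strata and 1 in tsh neurons. The 3 pairs at 2 or more became 1 with a gate of 5 UMIs and 0 in tsh neurons. Leaving out each library pair gave 4 to 6 and 2 to 3. Except that some settings used fewer cells or UMIs, the cause was not tested. Counts of 1 to 10 cells behind the rarer pairs limit what can be read from them.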

Other observations

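In epidermis, cuticle genes of the Antennapedia complex differed in their ratios with head and trunk Hox genes. Ccp84Ae, a cuticle gene that lies between lab and pb, was found in 6 epidermal cells with an Scr UMI where 28.1 were expected (0.21), and its ratio was 0.33 with pb and 0.45 with Dfd and 0.99 with Antp and 1.035 with Ubx. Ccp84Ad, its neighbour, had ratios of 2.33 with pb, 2.11 with Dfd and 0.74 with Antp. These features were picked after their values were seen.

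In the muscle gate, the features most often found with Antp and Ubx included genes known from neurons: X11Lbeta (2.68), Nckx30C (2.67) and the GABA receptor gene Rdl (2.63) with Antp, and AstC-R2 (2.55), Rdl (2.51) and the synaptic vesicle gene Syt1 (2.48) with Ubx. Syt1 was found in 18.4% of muscle cells with a Ubx UMI and 4.65% of those without. As a class, muscle was at least 1 log2 unit lower than other cells for 6 of 6 neuronal markers, which summed to 399 CPM in muscle and 10269 CPM in neurons. These features too were picked after their values were seen. The part of neuronal RNA in the muscle levels of Antp and Ubx was not tested.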
